A study of Rattus norvegicus with 10 samples.

Results

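Genes of the survival kinase pathways of ischemic conditioning were followed in RNA of plasma exosomes, the small membrane vesicles that cells release into blood. The list held 9 genes, chosen by name, namely Pik3cb, Pik3cg, Akt1, Akt2, Mapk3, Gsk3b, Prkce, Jak2 and Stat3. A gene counted as measured where a transcript cluster, the array's unit of probes for a transcribed region, had it as its only annotated symbol. By that rule 8 of the 9 were measured, among 22098 genes with such a cluster, and each had a single cluster. Mapk3, which encodes the kinase ERK1, was not analysed here. The animals were male Wistar rats, of which 5 had remote ischemic conditioning (RIC) and 5 were healthy controls. RIC meant 4 cycles, each with 5 min of ischemia and 5 min of reperfusion. The labels repeat that treatment text for every sample, controls included, and it is taken here to apply to the RIC rats, since the controls are named healthy. No label gives the body part made ischemic, the time of blood sampling, the age of the animals or a sham procedure. Each exosome preparation came from 10 mL of venous blood with EDTA, and each array is taken as 1 rat.

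Conditioning signals converge on 2 kinase routes that were worked out mainly in heart muscle. In the reperfusion injury salvage kinase (RISK) route, receptors activate phosphoinositide 3-kinase (PI3K), Akt and the ERK kinases, and protein kinase C epsilon and inhibition of GSK3 beta act toward the mitochondria. In the survivor activating factor enhancement (SAFE) route, tumour necrosis factor and cytokines of the interleukin-6 family activate JAK kinases, which phosphorylate STAT3. These kinases are switched by phosphorylation and membrane recruitment, which an array of RNA does not measure. The same genes serve blood cells: PI3K beta and gamma act in platelets and leukocytes, and JAK2 carries the signals of the erythropoietin and thrombopoietin receptors.

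All values are log2 signal as deposited. The array held 68842 clusters, array medians lay between 4.05 and 4.23, and the lowest correlation between 2 arrays was 0.988 over clusters. Clusters of olfactory and vomeronasal receptor genes centred on 4.01, and their 95th percentile, 4.38, is used below as background. All 11 exosome genes measured had a mean above it, with the tetraspanin Cd9 and the syntenin gene Sdcbp at the array's highest value of 19.93 on every array. That value is not particular to exosome genes. The platelet genes Pf4, Tubb1, Clec1b and F13a1 and the haemoglobin genes Hba-a1 and Hbb-bs were also at 19.93 on every array. Genes at this ceiling cannot show a group difference. The mean of each of the 8 kinase genes exceeded background, and every gene but Prkce did so on all 10 arrays. Since signal also reflects how well a gene's probes bind, levels are compared between rats and not between genes. In exosome RNA, fewer vesicles from a cell type and less RNA per vesicle cannot be told apart.

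The promoters of Jak2 and Stat3 are shown because these SAFE genes had the largest differences of the 8. Each window covers 250 bases before to 50 bases after the gene's start in RefSeq, assembly GRCr8, read 5′ to 3′ on the gene's strand. Capitals mark the letters GGGCGG, a GC box that binds Sp1-type factors, searched on both strands. The Jak2 window lies at chr1:236408655-236408954 on the plus strand, and the Stat3 window at chr10:86363310-86363609 on the minus strand.
Jak2: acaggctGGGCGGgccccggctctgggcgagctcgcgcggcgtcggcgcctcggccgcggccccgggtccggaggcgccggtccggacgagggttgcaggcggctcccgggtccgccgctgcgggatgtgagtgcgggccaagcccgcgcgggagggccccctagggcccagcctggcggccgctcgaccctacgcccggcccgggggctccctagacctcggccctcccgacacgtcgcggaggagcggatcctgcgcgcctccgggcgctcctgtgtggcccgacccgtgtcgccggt
Stat3: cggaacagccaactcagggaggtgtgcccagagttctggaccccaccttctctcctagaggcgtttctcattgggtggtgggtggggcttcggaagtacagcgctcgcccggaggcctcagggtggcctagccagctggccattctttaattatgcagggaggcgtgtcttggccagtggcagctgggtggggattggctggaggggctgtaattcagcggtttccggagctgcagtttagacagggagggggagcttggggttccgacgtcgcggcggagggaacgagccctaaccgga
The Jak2 window was 80.3% G and C and the Stat3 window 62.3%, against a median of 51.7% over 33469 rat promoters. The GC box was found in the windows of Jak2 and Prkce, in 2 of the 7 kinase genes with a window, and in 33.1% of all promoters. The palindrome TTCNNNGAA, the core letters that STAT proteins bind, occurred in 0 of the 7 windows and in 8.87% of all promoters.

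The PI3K catalytic subunit genes Pik3cb and Pik3cg had differences whose 95% intervals spanned 0. Pik3cb, the beta catalytic subunit, measured 4.94, 4.80, 4.97, 5.03 and 4.83 in RIC rats 1 to 5, against 4.90, 5.00, 4.90, 4.78 and 4.87 in control rats 1 to 5. Its groups overlapped over nearly their whole range, and the log2 difference, RIC minus control, was 0.02 with a 95% interval of -0.10 to 0.15. Pik3cg, the gamma subunit that G protein-coupled receptors activate, measured 5.07, 4.90, 4.80, 5.11 and 5.16 in RIC, against 5.15, 5.71, 5.22, 4.87 and 4.88 in control. Control rat 2 stood highest, while controls 4 and 5 lay among the lowest values. The difference was -0.16 (interval -0.51 to 0.20), and without control rat 2 it was -0.02.

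The Akt genes, whose kinases are activated by the lipid product of PI3K, had differences of opposite sign. Akt1 measured 6.36, 6.74, 5.83, 6.27 and 6.13 in RIC, against 6.42, 7.19, 6.84, 6.39 and 6.01 in control. Controls 2 and 3 lay above every RIC rat and RIC rat 3 below every control, yet control 5 was lower than 4 of the RIC rats. The Akt1 difference was -0.30 (interval -0.84 to 0.23). It was -0.15 without control rat 2, -0.20 without RIC rat 3 and -0.11 with quantile normalization of the deposited values. Akt2, the isoform best known for insulin action, measured 6.57, 6.95, 6.71, 7.18 and 6.55 in RIC, against 6.42, 6.92, 6.99, 6.54 and 6.42 in control. Only RIC rat 4 exceeded all controls, and the difference was 0.13 (interval -0.23 to 0.50). Without RIC rat 4 it was 0.04. Akt2 also depended on the scaling: with quantile normalization its difference was 0.34 (limma adjusted p = 0.425). With each array's level-dependent trend removed it was 0.27 (limma adjusted p = 0.567). In both settings its unadjusted p was under 0.05. Centring on the array median gave 0.07 and centring on the receptor median 0.05, each with an unadjusted p above 0.05.

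Gsk3b, which encodes the kinase that Akt inhibits, measured 9.29, 9.52, 9.69, 9.55 and 9.19 in RIC, against 9.54, 9.74, 9.37, 9.44 and 9.67 in control. RIC rats 1 and 5 were lower than every control and the other 3 lay within the control range. Its difference of -0.10 (interval -0.35 to 0.14) turned positive, to 0.19, with quantile normalization and to 0.04 with the trend removed. It was -0.04 without RIC rat 5 and -0.06 without control rat 2. Prkce, the epsilon isoform of protein kinase C studied in heart preconditioning, measured 4.74, 4.60, 4.48, 4.51 and 4.53 in RIC, against 4.55, 4.62, 4.58, 4.53 and 4.35 in control. These values lay close to background, with control 5 below it, and the difference was 0.05 (interval -0.10 to 0.19). Without RIC rat 1 it was 0.004, and without control rat 5 it was 0.002.

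Jak2 and Stat3, the kinase and transcription factor of the SAFE route, had the largest differences of the 8 genes, and both were negative. Jak2 measured 9.37, 9.62, 9.77, 9.85 and 8.13 in RIC, against 10.94, 11.20, 10.26, 9.84 and 9.80 in control. Of the RIC rats, 4 lay below every control, and RIC rat 4 lay just above controls 4 and 5, so the groups overlapped by a narrow margin. Jak2 averaged 9.35 ± 0.71 in RIC and 10.41 ± 0.64 in control (SD, n = 5 each), a log2 difference of -1.06 (SE 0.40, interval -1.96 to -0.16) or a ratio of 0.480. It did not pass the test over all clusters (limma adjusted p = 0.411), while its unadjusted limma p was 0.0256 and its two-sided exact permutation p, unadjusted among 8 such tests, was 0.0238. Stat3 measured 6.98, 7.06, 6.82, 6.92 and 6.85 in RIC, against 7.09, 7.76, 8.06, 7.29 and 6.69 in control. The RIC rats lay in a narrow band, with 4 controls above all of them and control 5 below all of them. Stat3 averaged 6.93 ± 0.10 in RIC and 7.38 ± 0.54 in control (SD, n = 5 each), with a difference of -0.45 (SE 0.23, interval -0.97 to 0.07) and limma adjusted p = 0.489.

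**Figure D1:**
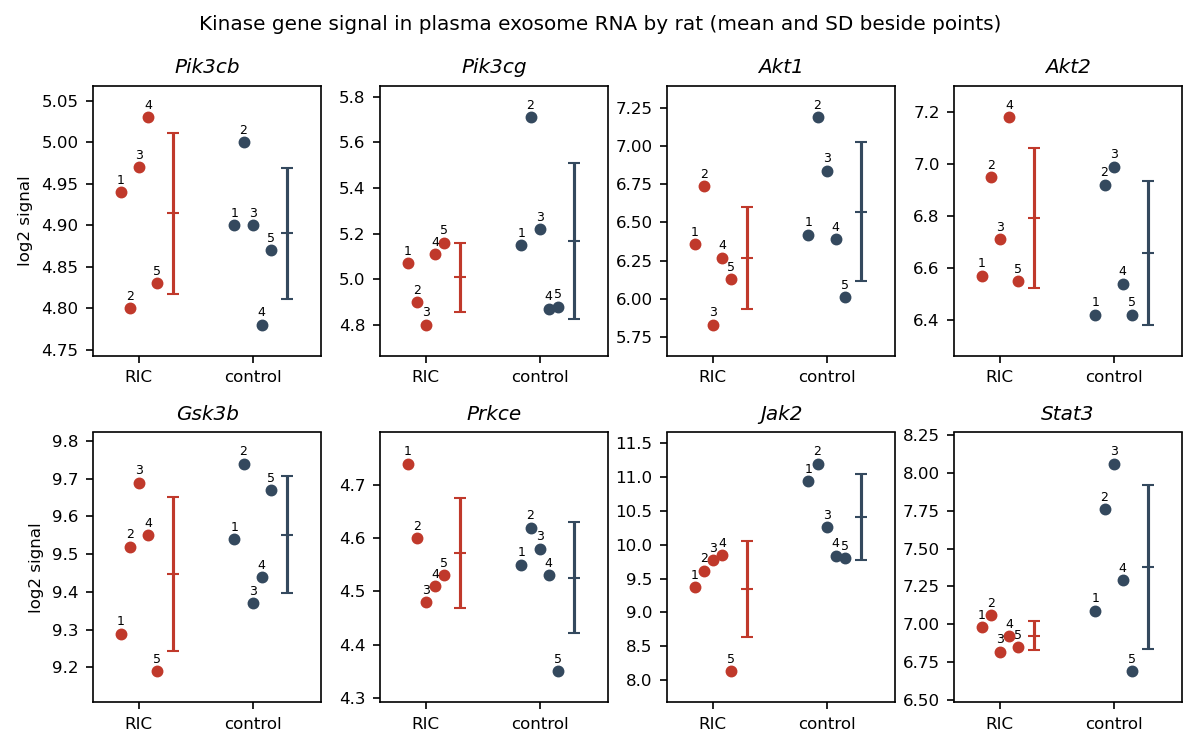
Log2 signal of the 8 kinase genes in each rat, RIC left of control, with points numbered by rat and the mean and SD of 5 rats beside them. The axes differ between genes. Jak2 in RIC lay between 8.13 and 9.85 and in control between 9.80 and 11.20, while the other genes overlapped more widely.

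The Jak2 difference rested in part on single animals. RIC rat 5, at 8.13, stood apart from the other RIC rats at 9.37 to 9.85, and without it the difference was -0.76 (limma adjusted p = 0.526). Without control rat 1 it was -0.93 and without control rat 2 it was -0.86, and in each case the unadjusted p was no longer under 0.05. With both controls left out it was -0.62 (limma adjusted p = 0.764). The 4 rescalings gave differences from -1.15 to -0.75, each with an unadjusted p under 0.05, and leaving out single rats gave -1.21 to -0.76. For Stat3 the rescalings gave -0.54 to -0.21, and leaving out control 3, its highest value, gave -0.28. Leaving out control 5, its lowest, gave -0.62 (limma adjusted p = 0.363), which brought the unadjusted p of Stat3 under 0.05.

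**Figure D2:**
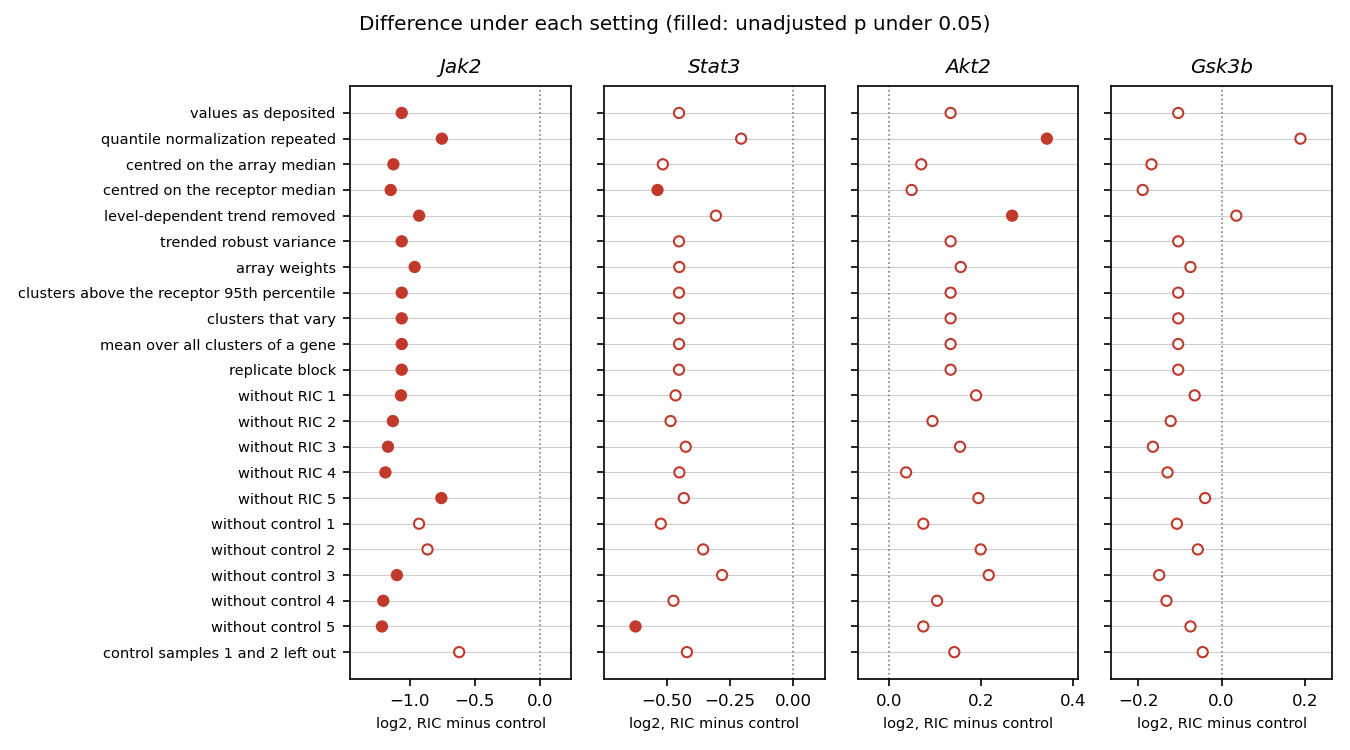
Log2 difference, RIC minus control, of Jak2, Stat3, Akt2 and Gsk3b in the deposited values and under each alternative scaling, model or set of rats, with filled points at an unadjusted p under 0.05. Jak2 stayed between -1.21 and -0.62 and Stat3 between -0.62 and -0.21, whereas Gsk3b changed sign under 2 rescalings.

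Of the 8 kinase genes, 0 passed at an adjusted p under 0.05, as did 0 (0%) of the 68842 clusters, with 0.302 as the lowest limma adjusted p. Jak2 alone had an unadjusted p under 0.05, 1 of 8 (12.5%), a share near the 11.1% of all clusters. Jak2 was lower in RIC at that threshold, as were 3.17% of clusters, while 7.97% were higher in RIC. Groups without overlap were found for 0 of the 8, against 0.471% of clusters lower and 1.27% higher in RIC. In sign, 5 kinase genes had a negative and 3 a positive difference, with a median of -0.13. The median over all varying clusters was 0.03, and 38.5% of them had a negative difference. Among varying clusters with a level between those of the dimmest and the brightest kinase gene, 64.8% had a negative difference. Their median was -0.07. The share of negative differences varied with level, from 35.4% within 0.5 of the Prkce mean to 79.8% within 0.5 of the Stat3 mean. This pooled class is thus not matched to the level of each kinase gene.

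The differences followed signal level in the array as a whole, and clusters near each gene's own level give its surroundings. Of 463 varying clusters within 0.5 of the mean level of Jak2, 69.8% had a negative difference and the median was -0.21. Jak2, at -1.06, was further from 0 than that median, and 11.4% of those clusters had a difference as low or lower. Around Stat3 the median was -0.23 over 1349 clusters, and 22.5% were as low as Stat3 or lower. Around Akt2 the median was -0.21, so that 90.4% of 1714 clusters lay at or below its value of 0.13. Gsk3b at -0.10 lay above the median of its level, -0.23, and Pik3cb and Prkce lay near theirs, at 0.00 and 0.04.

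**Figure D3:**
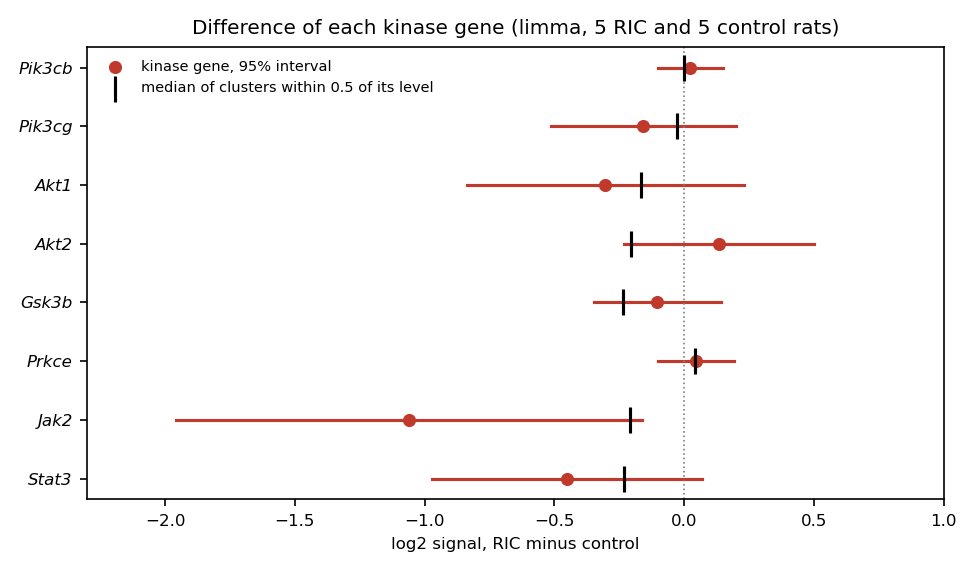
Log2 difference, RIC minus control, of each kinase gene with its 95% interval from limma (5 rats per group), and, as black ticks, the median difference of all varying clusters within 0.5 of that gene's mean level. The interval of Jak2, -1.96 to -0.16, lay below 0 and held the tick at -0.21, and the intervals of the other 7 genes spanned 0.

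The kinase genes did not all peak in the same rat. Control rat 2 had the highest value of 4 of the 8 genes, RIC rat 4 of 2, and RIC rat 1 and control rat 3 of 1 each. Control rat 2 had a median deviation of 0.42 from the genes' means over all rats. It also had the highest mean level of the platelet, endothelial and exosome marker lists given below, so its height was not particular to the kinase genes. Control rat 3 had a median deviation of 0.20, and control rat 5 had -0.20. In RIC the median deviations ran from -0.23 in rat 5 to -0.00 in rat 4. The highest and the lowest control thus lay further apart than the RIC rats did.

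The wider pathways were described with 8 lists of 126 measured genes, shared genes counted once. Of the 118 genes other than the kinase genes, 76 had a negative and 40 a positive difference, with a median of -0.04. None passed at an adjusted p under 0.05, with the lowest limma adjusted p at 0.313. Past an unadjusted p of 0.05 were 10 lower and 2 higher in RIC, or 10.2% in all, against 11.1% of all clusters. The balance of signs differed from that of all clusters, with 8.47% of the pathway genes lower against 3.17% of all clusters, which have 7.97% higher. Among clusters whose level lay between those of the dimmest and the brightest kinase gene, 8.95% were lower and 3.51% higher at that threshold. Whatever their p, 64.8% of those clusters had a negative difference, with a median of -0.07.

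In the PI3K and Akt arm, 25 of 27 listed genes were measured, with 14 negative and 11 positive differences and a median of -0.02. Rheb, the small GTPase that activates mTOR, measured 9.18, 9.09, 8.49, 8.42 and 8.09 in RIC, against 9.23, 9.97, 9.68, 9.69 and 9.07 in control. The groups overlapped only because control 5 lay below RIC rats 1 and 2. The difference was -0.87 (limma adjusted p = 0.370), or -0.58 with quantile normalization. Pik3r1, the main regulatory subunit of PI3K, averaged 8.77 ± 0.18 in RIC and 9.35 ± 0.42 in control, a difference of -0.58. With quantile normalization it was -0.29, and its unadjusted p was no longer under 0.05. Rps6kb2, an S6 kinase near background, averaged 4.49 ± 0.11 in RIC and 4.35 ± 0.06 in control, and each of the 4 rescalings took its unadjusted p above 0.05. Mtor, Mlst8, Tsc1 and Pik3r6 had means at or under background.

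In the ERK arm, 14 of 19 listed genes were measured, with 12 negative and 2 positive differences and a median of -0.04. Nras, a Ras GTPase upstream of ERK, measured 9.05, 8.93, 9.25, 9.11 and 8.76 in RIC, against 9.66, 10.29, 10.07, 9.62 and 9.44 in control. Every RIC rat lay below every control, with a difference of -0.80 (SE 0.17, limma adjusted p = 0.313). Rps6ka3, the ERK-activated kinase RSK2, averaged 7.09 ± 0.15 in RIC and 8.04 ± 0.80 in control, a difference of -0.94, with an unadjusted p no longer under 0.05 once control 2 was left out. The adaptor Grb2, the brightest of the arm, had a difference of -0.02 that was 0.31 with quantile normalization.

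Among protein kinase C isoforms, 8 of 9 were measured, with 4 negative and 4 positive differences. Prkcq, the theta isoform found in platelets and T cells, measured 14.10, 14.83, 15.07, 15.39 and 13.71 in RIC, against 15.18, 16.71, 14.75, 15.08 and 16.09 in control. Its groups overlapped, and the difference was -0.94 (limma adjusted p = 0.470), or -0.55 with quantile normalization. The mitochondrial and Akt substrate list had 12 negative and 6 positive differences among 19 genes, with a median of -0.11. There the outer membrane channel Vdac1 averaged 5.62 ± 0.17 in RIC and 5.99 ± 0.25 in control, with -0.24 after quantile normalization, while Vdac3 lay between 18.48 and 18.59 on all arrays.

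In the JAK and STAT arm, 16 of 17 listed genes were measured, with 12 negative and 4 positive differences and a median of -0.13. Besides Jak2, Lifr, the receptor for leukaemia inhibitory factor, averaged 6.35 ± 0.34 in RIC and 6.92 ± 0.39 in control, a difference of -0.56 (limma adjusted p = 0.413). Quantile normalization gave -0.34, and with it or without RIC rat 1, RIC rat 4 or control 2 the unadjusted p was above 0.05. Il6r and Jak3 had means at or under background. Targets and feedback regulators of STAT3 had 8 negative and 7 positive differences among 16, with a median of -0.01. Bcl2l1, a survival gene that STAT3 can induce, averaged 5.76 ± 0.09 in RIC and 5.90 ± 0.05 in control. Its difference of -0.14 was -0.02 with quantile normalization. Ptpn11, the phosphatase SHP2, averaged 12.15 ± 0.39 in RIC and 12.52 ± 0.73 in control, a difference of -0.37 (limma adjusted p = 0.694). That value was -0.10 without control 2, -0.21 without RIC rat 5, -0.60 without control 3 and -0.03 with quantile normalization. The feedback genes Socs1, Socs3 and Cish were at or under background.

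Receptors that start conditioning signals were mostly not seen above background. Of 18 measured, 12 had means at or under it, among them the adenosine receptors Adora1 and Adora2b, both bradykinin receptors and the 3 opioid receptors. S1pr1, a receptor for sphingosine 1-phosphate, averaged 4.88 ± 0.17 in RIC and 4.98 ± 0.14 in control. S1pr3 averaged 3.98 ± 0.11 in RIC and 3.84 ± 0.07 in control, under background in each, and each rescaling took its unadjusted p above 0.05. The 10 other kinases linked to conditioning all had negative differences, with a median of -0.20. That median was near the -0.22 of all varying clusters with a mean of 6 to 18, of which 78.1% had a negative difference. The class leaves out the level of Prkaa2, Mapk8, Prkg1 and Mapk9, whose means were 4.51, 4.59, 4.80 and 5.47. Varying clusters within 0.5 of Prkce, at 4.55, had a median of 0.04, and those around Pik3cb, at 4.90, one of -0.002. Rock1, Rock2 and Prkaa1, 30.0% of this list, crossed the unadjusted 0.05 threshold, as did 11.1% of all clusters. Among the 10 kinases, Rock1 measured 8.07, 8.47, 8.33, 8.24 and 7.68 in RIC, against 8.75, 9.54, 9.37, 8.89 and 8.51 in control. Its groups did not overlap, and the difference was -0.85 (limma adjusted p = 0.356). Its paralogue Rock2 had a difference of -1.03, and Prkaa1, a catalytic subunit of the energy sensor AMPK, one of -0.59. The unadjusted p of Rock2 was above 0.05 with quantile normalization and without any of RIC rats 4 and 5 and controls 2, 3 and 4, and that of Prkaa1 without RIC rat 5 or control 3. With quantile normalization the Rock1 difference was -0.55 and the Nras difference -0.50, each with an unadjusted p under 0.05.

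**Figure D4:**
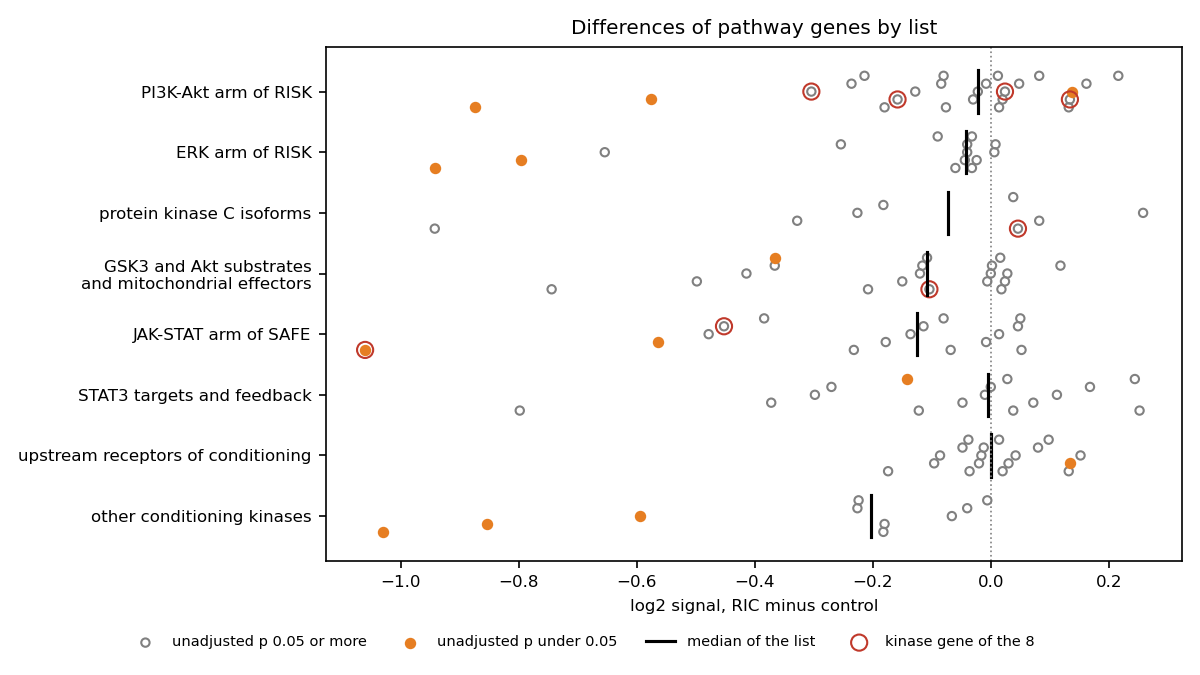
Log2 difference, RIC minus control, of every measured gene in the 8 pathway lists, with orange points at an unadjusted p under 0.05, red rings around the 8 kinase genes and a black line at each list's median. List medians lay between -0.20 and 0.00, and Jak2 at -1.06 had the lowest difference shown.

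Genes whose profile over the 10 rats was closest to that of Jak2 and Stat3 were sought among 2509 genes with a mean above 6. Closeness was the root mean square distance between log2 values centred on each gene's mean. Nearest to Jak2 were Tbl1xr1, a subunit of nuclear corepressor complexes, at 0.23, Tnpo1, a nuclear import receptor, at 0.30, and Gucy1b1, a subunit of soluble guanylate cyclase, at 0.30. Tbl1xr1 averaged 10.16 ± 0.41 in RIC and 11.11 ± 0.62 in control. Nearest to Stat3 were Xiap, an inhibitor of caspases, at 0.07, Wdr82 at 0.08 and Uaca at 0.09. Xiap averaged 7.16 ± 0.14 in RIC and 7.72 ± 0.53 in control. These distances describe 10 rats that include both groups, and genes were searched without a test.

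Markers of cells whose RNA the preparation could hold were read in the same rats, and in every list 0 passed at an adjusted p under 0.05. The endothelial and exosome lists leaned lower in RIC and the erythroid list higher. For comparison, negative differences were found in 38.5% of all varying clusters. The share was 78.1% among those with a mean of 6 to 18, with a median of -0.22. All 10 endothelial markers had negative differences (median -0.57), and their mean level ranged from 6.71 to 7.34 in RIC and from 6.99 to 8.18 in control. Control rat 2 held the 8.18, and without it 9 of 10 were negative with a median of -0.34. Single endothelial markers differed widely, from -1.10 in Pecam1 to -0.07 in Tie1 and -0.03 in Cldn5, which was at or under background. Of 12 platelet markers, 4 were at the ceiling of 19.93 on all arrays. Of the other 8, 7 had negative differences (median -0.10), with mean levels of 16.77 to 17.58 in RIC and 17.16 to 17.64 in control. Without RIC rat 5, 5 of those 8 were negative (median -0.02). Some of them held a fixed value on most arrays, so their signs rest on few rats. Gp9 was at 19.93 on 8 arrays, and Itgb3 at 18.31 except in RIC rat 1. P2ry12 was at 19.75 except in RIC rat 5, and Treml1 at 17.86 except in RIC rats 1 and 5. The differences of these genes ran from -0.076 to 0.006. Those of Gp1ba, Itga2b, Gp6 and Ppbp were -0.13, -0.28, -0.30 and -0.65. All 7 varying erythroid markers had positive differences (median 0.23), with mean levels of 6.90 to 8.61 in RIC and 6.79 to 7.23 in control. RIC rat 4 stood apart at 8.61, above the other RIC rats at 6.90 to 7.37. Without it, 6 of the 7 had positive differences, and the gap in mean level was 0.19 in place of 0.48. Without control 5, 6 of the 7 were positive too. Median differences of white cell markers were closer to 0, from 0.03 to 0.09, but single genes ranged more widely. The range was -0.18 to 0.51 among neutrophil, -1.40 to 0.21 among monocyte and -0.25 to 0.55 among lymphocyte markers. Neutrophil markers had 7 positive and 3 negative differences, with levels of 4.54 to 4.93 in RIC and 4.35 to 4.87 in control and 6 of 10 at or under background. Monocyte markers had 4 of each sign, with levels of 5.44 to 5.88 in RIC and 5.58 to 6.11 in control. Their mean level differed by -0.12, with the lowest difference in Ccr2, at -1.40 (limma adjusted p = 0.468). Lymphocyte markers had 8 positive and 3 negative differences, with levels of 5.10 to 5.36 in RIC and 5.05 to 5.21 in control. Heart and skeletal muscle markers had 6 negative and 4 positive differences, at levels of 4.67 to 4.90 in RIC and 4.79 to 5.06 in control, and Myh7, Tnni3 and Myh4 were at or under background. The other 7 muscle markers had means above it, led by the myoglobin gene Mb, which averaged 6.13 over all rats with a difference of -0.65 (limma adjusted p = 0.501). Liver markers had 5 positive and 1 negative difference, at levels of 4.32 to 4.54 in RIC and 4.16 to 4.36 in control, with 4 of 6 at or under background and Alb, the albumin gene, above it on all 10 arrays. Exosome genes had 8 negative differences among 8 that varied (median -0.39), at levels of 7.19 to 7.74 in RIC and 7.65 to 8.30 in control. The part of these cell and vesicle sources in the Jak2 and Stat3 values was not tested.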

How the data were processed

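RNA of plasma exosomes, isolated by differential centrifugation and extracted with TRIzol and an RNeasy kit per the labels' protocols, was hybridised to 10 arrays. Each array is taken as 1 rat (5 RIC, 5 control, grouped by title). The authors deposited 1 table of log2 signal per transcript cluster, and per the submitters' processing notes the tool was Affymetrix Expression Console. The sources used here give no version, summarisation, normalization or genome build. Signal near the lowest value (2.71) and the ceiling (19.93, reached by 1211 clusters on all arrays) compresses differences, and the number of arrays limits the precision. No read depth applies. Arrays agreed exactly at no more than 3.84% of varying clusters, so none was a copy of another.

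Symbols came from the platform annotation, in which 23456 of 68842 clusters had 1 symbol, 495 several and 44891 none. Where a gene had several clusters, the brightest over all arrays was used. The deposited log2 values were fitted as RIC minus control in limma 3.58.1 (lmFit, then eBayes) under R 4.3.3, with no covariate or filter. P-values were adjusted over all 68842 clusters by the Benjamini-Hochberg method, with a threshold of 0.05, and intervals are 95% limma intervals. The step was tested on simulated data. Exact permutation tests used all 252 assignments, for which the smallest p is 0.00794. No label states outright that each array is a separate animal, so the p-values cover only the spread between these 10 samples, which may be technical.

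The kinase genes and all lists were chosen with earlier results of these data known. All kinase genes are given per rat. From each pathway list, genes with an unadjusted p under 0.05 and the brightest gene not at the ceiling are named, and so are the 3 genes nearest in profile to each of the 2 kinase genes with the largest SD. Other genes named as examples were chosen after their values were seen. Promoter sequences are RefSeq's (GRCr8), with a window for 7 of the 9 kinase genes.

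Alternatives were 4 rescalings, 2 variance models, 2 filters, the mean over a gene's clusters, the replicate number as a block, and leaving out rats. The exact permutation tests, and the marker lists without single rats, were added after the data were seen. Titles give both groups the numbers 1 to 5, which nothing in the labels ties to a shared litter or day.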

Additional observations from a re-analysis of the deposited data

Results flagged for a closer look

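Of 16 groups of 5 rats examined over the 8 kinase genes, 1 held a rat far from the others: Jak2 in RIC rat 5 was 8.13, below the other RIC rats at 9.37 to 9.85, and its gap took 0.721 of the group's range, above the critical value of 0.71. Chance flags about 1 in 20 such groups.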

How the results depend on the processing

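No cluster passed at an adjusted p under 0.05 in the deposited values or under any alternative run, with the lowest limma adjusted p from 0.125 to 0.428, and clusters at an unadjusted p under 0.05 numbered 5830 to 8391 with at least 9 rats and no filter on level. They numbered 2393 among the 22545 clusters above background and 4750 without controls 1 and 2. Kinase genes at an unadjusted p under 0.05 numbered 1 in the deposited values. They numbered 2 with quantile normalization, with centring on the receptor median and with the trend removed. The gene added to Jak2 was Stat3 with centring on the receptor median and Akt2 in the other settings. Kinase genes at that threshold numbered 0 to 2 when single rats were left out and 0 without controls 1 and 2. The cause of these changes was not tested. The median difference of the kinase genes stayed negative, from -0.22 to -0.01. Over 168 comparisons of the 8 kinase genes with an alternative, 159 kept the sign. Gsk3b turned to 0.19 with quantile normalization and 0.0353 with the trend removed. Pik3cb turned to -0.04 and Prkce to -0.018 with centring on the array median, and to -0.061 and -0.039 with centring on the receptors. Pik3cb ranged from -0.005 to 0.0525 when single rats were left out, and Pik3cg was 0.018 without controls 1 and 2. Among 17 other named pathway genes, 346 of 356 comparisons kept the sign. Grb2 turned to 0.31 with quantile normalization, 0.11 with the trend removed, 0.0074 with array weights and 0.0713 without controls 1 and 2, and ranged from -0.0795 to 0.0305 when single rats were left out. Vdac3 turned to -0.036 and -0.057 with centring on the array median and on the receptors, and Ptpn11 to 0.0087 without controls 1 and 2. Averaging a gene's clusters left the kinase genes as they were, since each had 1. Same-numbered rats of the 2 groups correlated in their deviations from -0.05 to 0.18, and 1 of 5 RIC rats correlated best with its own number. The replicate block left 0 clusters called, 7599 at an unadjusted p under 0.05 and 1 kinase gene, Jak2, and a median difference of -0.13. Signal close to background limits Prkce and most upstream receptors.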

Other observations

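Within each array, the log2 signal of Akt1 minus that of Akt2 was -0.21, -0.21, -0.88, -0.91 and -0.42 in RIC rats 1 to 5, against 0.00, 0.27, -0.15, -0.15 and -0.41 in control rats 1 to 5. It averaged -0.53 ± 0.35 in RIC and -0.09 ± 0.25 in control (SD, n = 5 each), and all RIC rats lay below 4 of the 5 controls. A shift common to an array cancels in this value, whereas one that depends on signal level may not. The pair was chosen after its values were seen, so the difference was not tested.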
